A study of Mus musculus with 35 samples.

Results

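The comparison set the small intestine of wild-type mice (129S1/SvImJ) gavaged with tridocosahexaenoin, a synthetic triacylglycerol that carries only docosahexaenoic acid (DHA), against that of wild-type mice gavaged with triolein, which carries only oleic acid (OA). Of the 35 arrays in the study, 9 entered the contrast by their labels, 5 for DHA and 4 for OA, each hybridised with the RNA of 1 male mouse. All mice had eaten a semi-synthetic diet with olive oil for 2 weeks, had been fasted for 4 h, received 400 µl of lipid and were killed 6 h later, when the whole small intestine was flushed, cleared of fat and pancreas and extracted. Wild-type mice given trieicosapentaenoin (eicosapentaenoic acid, EPA; 5 arrays), and PPARα-null mice (129S4/SvJae) given DHA (4 arrays) or OA (4 arrays), were used beside it. No mice without a lipid load were analysed here, so each difference is between 2 lipids and neither is a baseline. The genotypes also differ in their substrain, and the 2 cannot be told apart.

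Levels are deposited log2 GCRMA values, so a difference of 1 is a 2-fold difference. The comparison covered the 15384 of 45037 probesets whose group mean exceeded a log2 value of 5 (32 on the linear scale) in at least 1 of the study's 8 groups, and these represented 8626 named genes. A gene was counted as higher or lower when at least 1 of its probesets had an adjusted p under 0.05 in limma (Benjamini-Hochberg over all 15384 probesets).

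DHA and EPA are long n-3 polyunsaturated fatty acids, and DHA has the longer chain with more double bonds, whereas OA has a single double bond. Fatty acids reach gene expression along several routes: they bind the nuclear receptor PPARα, which drives fatty acid oxidation, and polyunsaturated fatty acids restrain SREBP-1, the transcription factor of fatty acid synthesis that Srebf1 encodes. The highly unsaturated chains also oxidise readily, and the reactive aldehydes that result are conjugated to glutathione in a pathway under the transcription factor NRF2. Enterocytes meanwhile re-esterify absorbed fatty acids and export them in chylomicrons, which leave the endoplasmic reticulum in coated vesicles.

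The 9 arrays had similar medians over all probesets (2.83 to 2.88), and their median correlation within the own group was 0.975 to 0.984, against 0.968 to 0.981 with the other group; DHA replicates 1 and 2 correlated better with the OA arrays than with the other DHA arrays. The mean over 11 expressed enterocyte markers was 12.78 to 13.02 in DHA arrays and 12.99 to 13.06 in OA arrays. The lowest, DHA replicate 5, was also the lowest of all 35 arrays. Of the 11 markers, 9 had a difference below 0, with a median of -0.06, and 3 (Apoa4, Mttp and Anpep) were lower with DHA. The mean over 18 pancreatic acinar markers varied between single mice, from 9.30 to 13.15 in DHA arrays and from 10.45 to 12.39 in OA arrays, and none of the 18 passed the test, although 17 had a difference below 0, with a median of -0.59 (-2.17 in PPARα-null mice). The probeset shared by Cyp4a10 and Cyp4a31, PPARα target genes, read 8.47 to 9.88 on these 9 arrays and 1.36 to 2.5 on 15 PPARα-null arrays. Outside the contrast, 3 arrays went against their genotype label on it, the one labelled wild-type EPA replicate 5 (1.81) and, of those labelled PPARα-null, EPA replicate 5 (9.91) and the first OA replicate (10.61). The main fit takes 1 spread from all 35 arrays, so these 3 enter the error of the contrast.

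DHA was followed by higher expression of 121 genes (1.4% of genes tested) and lower expression of 272 genes (3.15%) relative to OA, 393 in all (4.56%). The genes that rose included those for glutathione synthesis and conjugation, and the genes that fell included Srebf1 and sterol synthesis enzymes, genes of lipid droplets and chylomicron assembly, coat proteins of the early secretory pathway, and interferon-stimulated genes. Most differences were modest. The median was 0.59 among the genes that rose and -0.61 among those that fell, and 21 of the genes that rose and 59 of those that fell passed 2-fold. Over all 8626 genes the median difference was 0.01, with 4565 genes above 0 and 4061 below 0 on their brightest probeset. The counts in the lists below stand against this split and against the called shares above. At the study's own looser threshold, an unadjusted p under 0.01, 306 genes (3.55%) were higher and 447 (5.18%) lower. The 5 DHA and 4 OA values did not overlap for 1066 of 15384 probesets (6.93%). The 15 largest rises and 15 largest falls named below were taken among such genes, so their lack of overlap follows from that choice. Both counts leaned on OA replicate 4: without it, 70 genes rose and 177 fell.

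**Figure D1:**
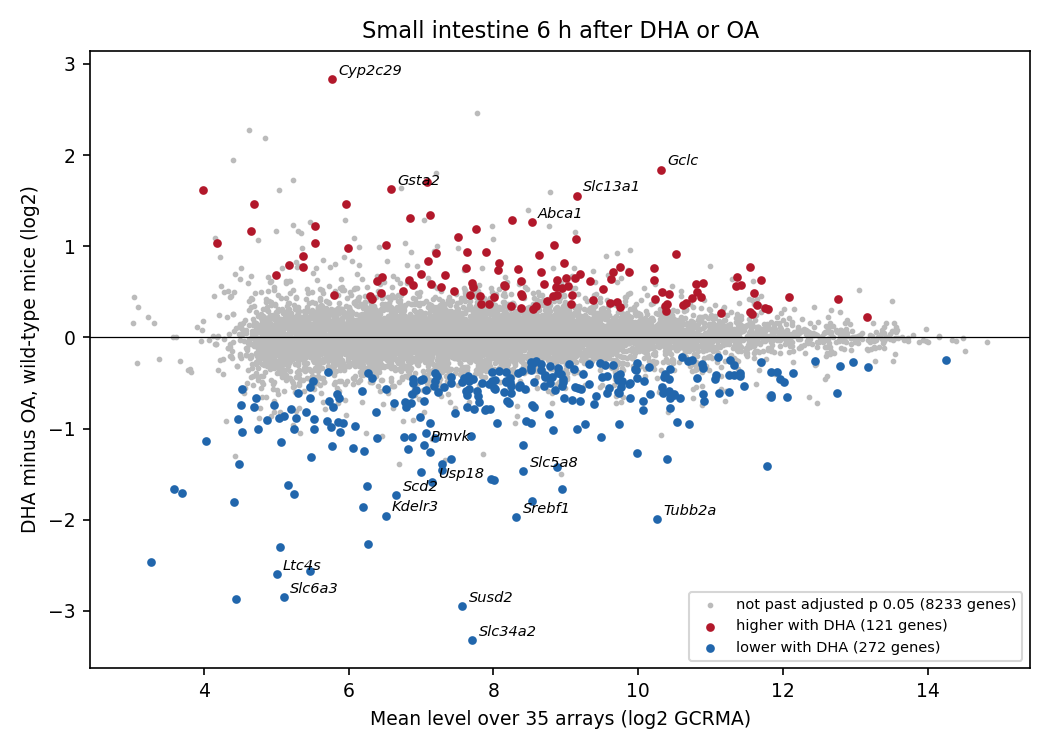
Difference between DHA and OA in wild-type mice (log2, y axis) against the mean level over all 35 arrays (log2 GCRMA, x axis), with 1 point per gene on its called probeset with the largest difference, or on its brightest probeset if none was called. The 121 genes that were higher with DHA (red) reach 2.84 (Cyp2c29), and the 272 that were lower (blue) reach -3.32 (Slc34a2).

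Gclc and Gsta2, of glutathione synthesis and conjugation, were among the genes with the largest rises. Gclc, the catalytic subunit of the enzyme that limits glutathione synthesis, read 11.06, 11.49, 11.68, 11.05 and 11.50 in DHA mice, against 9.56, 9.47, 9.37 and 9.66 in OA mice. Every DHA mouse was thus more than 1 log2 unit above every OA mouse, and the difference was 1.84 ± 0.23 (SE; limma adjusted p = 3.5e-06), a 3.58-fold rise. Gclm, which encodes the modifier subunit of the same enzyme, averaged 8.96 ± 0.26 in DHA mice and 8.32 ± 0.28 in OA mice (SD, n = 5 and 4; limma adjusted p = 0.0414). Nqo1, a quinone reductase widely used as a readout of NRF2, read 8.0, 7.80, 7.70, 7.28 and 7.98 in DHA mice, against 6.97, 6.85, 6.73 and 7.13 in OA mice. The groups did not overlap, with DHA replicate 4 closest to the OA mice, and the difference was 0.83 ± 0.14 (limma adjusted p = 0.00039).

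Of 36 expressed genes in a list of NRF2 and antioxidant genes, 6 rose (Gclc, Gclm, Nqo1, Ugdh, Srxn1 and Osgin1), 1 fell and 29 did not pass the test, with a list median of 0.10. Ugdh, which makes the UDP-glucuronate used for glucuronidation, was 0.66 ± 0.10 higher, and Srxn1, the sulfiredoxin that repairs oxidised peroxiredoxins, was 0.48 ± 0.11 higher. The gene that fell was Gpx4, a glutathione peroxidase that reduces lipid hydroperoxides in membranes, at -0.38 ± 0.08 (limma adjusted p = 0.0048). The gene for NRF2 itself, Nfe2l2, did not pass the test, and its difference of -0.13 had an unadjusted 95% interval of -0.28 to 0.02. Without OA replicate 1, only 3 of the 36 genes rose.

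Glutathione S-transferases attach glutathione to electrophiles. Of 20 expressed members, 7 rose, none fell, and 18 of the 20 had a difference above 0, with a median of 0.21. Over all genes, 1.4% rose and 4565 of 8626 had a difference above 0. The study tabulated several of these genes from the same arrays, so the count is not independent evidence. Gsta2 read 7.89, 7.70, 7.99, 7.23 and 8.0 in DHA mice, against 6.20, 6.35, 5.94 and 6.05 in OA mice. The groups were separated by almost 1 log2 unit, and the rise was 3.09-fold (1.63 ± 0.21, limma adjusted p = 8.2e-06). Gsta3 averaged 6.39 ± 0.37 in DHA mice and 5.35 ± 0.13 in OA mice (SD, n = 5 and 4), a difference of 1.04 ± 0.25 (SE; limma adjusted p = 0.0116). For Gstm1, the values were 10.14, 10.04, 9.29, 8.55 and 9.74 in DHA mice, against 8.63, 8.46, 8.35 and 8.71 in OA mice. Here the groups overlapped, because DHA replicate 4 lay among the OA mice, and the difference was 1.01 ± 0.25 (limma adjusted p = 0.0169). The other members that rose were Gstm3 (1.31 and 1.00 on 2 probesets), Gsta4 (0.63), Mgst2 (0.57) and Gstp1 (0.22). The genes of this family are similar in sequence and a probeset may read more than 1 of them, so the assignment to single members is uncertain. Without DHA replicate 1, 5 rose.

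The promoters that follow show where the antioxidant response element, the sequence that NRF2 binds, is written in the genes that rose. The letters TGACNNNGC were searched on both strands from 250 bases before to 50 bases after the RefSeq start site (GRCm38.p6), where they occurred in 12.4% of all 32851 windows. Counted by gene, with a match in any of its windows, these letters occurred in 14% of 27025 genes. They were present in 3 of 5 called antioxidant genes that had a window (Ugdh, Gclm and Srxn1), against 7 of 28 expressed members that were not higher, and in 1 of 6 called glutathione transferases (Gsta3), against 3 of 12. Capitals mark the match, on either strand, and each sequence runs 5′ to 3′ along the gene. They are Ugdh at chr5:65435883-65436019 on the minus strand, Gclm at chr3:122245378-122245476 on the plus strand, Srxn1 at chr2:152105507-152105573 on the plus strand and Gsta3 at chr1:21240419-21240517 on the plus strand. A match is a description of the letters and not a measured binding site.
Ugdh: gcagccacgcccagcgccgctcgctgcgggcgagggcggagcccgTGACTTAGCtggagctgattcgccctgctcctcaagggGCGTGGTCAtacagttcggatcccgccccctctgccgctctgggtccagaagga
Gclm: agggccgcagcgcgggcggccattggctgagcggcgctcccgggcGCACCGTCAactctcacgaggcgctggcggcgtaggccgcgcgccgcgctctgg
Srxn1: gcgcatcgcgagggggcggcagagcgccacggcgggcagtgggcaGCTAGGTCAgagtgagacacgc
Gsta3: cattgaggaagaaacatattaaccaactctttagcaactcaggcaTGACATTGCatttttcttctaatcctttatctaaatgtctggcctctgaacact

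Few other enzymes that handle aldehydes and xenobiotics passed the test. Cyp2c29, a cytochrome P450 of drug and fatty acid metabolism, showed the largest rise of all genes. Its values were 7.42, 7.82, 7.18, 6.10 and 6.38 in DHA mice, against 4.49, 4.23, 3.08 and 4.78 in OA mice. All OA mice lay under a log2 value of 5, so the rise is given as at least 3.95-fold (difference 2.84 ± 0.61, limma adjusted p = 0.0051). Cyp2c29 was 1 of 13 expressed cytochrome P450 genes outside the omega-hydroxylases to rise, Cyp2d26 fell (-0.46; not called in 7 of 9 fits that left out 1 array), and the list median was 0.15. In a list of 16 aldo-keto reductases and aldehyde dehydrogenases, 3 rose: Akr1c13 (0.56), Akr1c12 (0.37) and Aldh1a1 (0.45), which oxidises retinaldehyde and other aldehydes. Aldh9a1 was lower (-0.29), and the median was -0.03. Without OA replicate 4, 1 of the 16 rose. Akr1b8, a reductase of lipid aldehydes, was 8.72, 7.83, 8.99, 8.09 and 9.58 in DHA mice and 6.86, 7.13, 7.05 and 6.97 in OA mice. These values did not overlap either, yet its difference of 1.64 ± 0.53 did not pass the test (limma adjusted p = 0.0896). Nr1i2, the pregnane X receptor that senses xenobiotics, was 0.57 ± 0.15 higher (limma adjusted p = 0.0215), with overlapping groups.

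**Figure D2:**
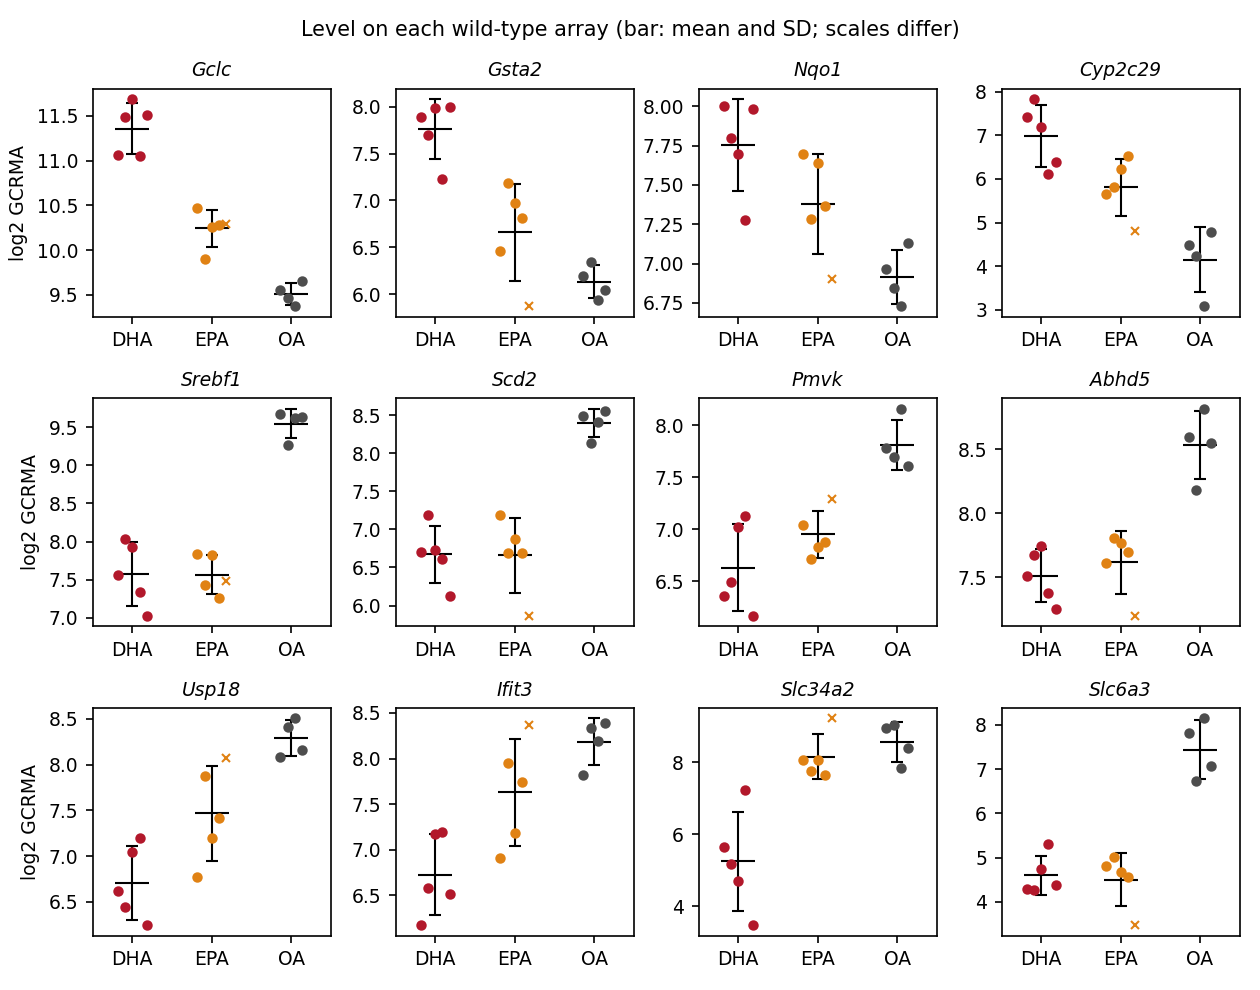
Level of 12 genes on each wild-type array (log2 GCRMA, y axis; scales differ between panels) after DHA (n = 5), EPA (n = 5) and OA (n = 4), with the mean and SD as bars; the cross is the array labelled wild-type EPA replicate 5. In the panels of Gclc and Gsta2 the DHA mice lie above both other groups, whereas in those of Srebf1, Scd2, Abhd5 and Slc6a3 the DHA and EPA mice both lie below the OA mice.

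Some genes of fatty acid synthesis and desaturation were lower after DHA, Srebf1 and Scd2 most of all. Srebf1 read 7.55, 8.04, 7.93, 7.34 and 7.03 in DHA mice, against 9.68, 9.26, 9.62 and 9.63 in OA mice. The highest DHA mouse lay more than 1 log2 unit below the lowest OA mouse, and Srebf1 was 3.92-fold lower with DHA (-1.97 ± 0.24, limma adjusted p = 2.2e-06). Scd2, a desaturase that introduces the double bond of monounsaturated fatty acids, read 6.71, 7.19, 6.72, 6.61 and 6.12 in DHA mice, against 8.49, 8.14, 8.42 and 8.56 in OA mice. It was 3.32-fold lower, again without overlap (-1.73 ± 0.35, limma adjusted p = 0.0023). Of 21 expressed genes in the list, 5 fell and none rose, and the median was -0.35. The others were Insig1 (-0.76), which retains the SREBP escort protein in the endoplasmic reticulum, Slc25a1 (-0.66), the mitochondrial citrate carrier, and Aacs (-0.88), which activates acetoacetate for lipid synthesis. Insig1, which is also in the cholesterol list, was not called in 5 of 9 fits that left out 1 array. Fasn, fatty acid synthase, had a difference of -0.35 with an unadjusted 95% interval of -0.72 to 0.03 (limma adjusted p = 0.417). For Scd1 the difference was -0.31 ± 0.68, with values that overlapped widely between the groups. Without DHA replicate 5, or without OA replicate 4, 3 of the 21 genes fell.

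Called genes of cholesterol synthesis also fell. Of 22 expressed genes of the pathway and its control, 7 fell, none rose and 20 had a difference below 0, with a median of -0.33. The reference over all genes was 3.15% that fell and 4061 of 8626 below 0. Pmvk, which phosphorylates mevalonate 5-phosphate, was 6.36, 6.49, 7.02, 7.13 and 6.17 in DHA mice, against 7.78, 7.70, 8.16 and 7.61 in OA mice. All DHA mice were below all OA mice, and the fall was 2.26-fold (-1.18 ± 0.19, limma adjusted p = 0.00015). The enzymes of the later sterol steps Lss (-0.91), Dhcr7 (-0.72), Msmo1 (-0.61) and Nsdhl (-0.49) were lower too, as were Insig1 and Stard4, a cytosolic sterol carrier (-0.40 on 1 of 3 probesets). Hmgcs1 and Sqle did not pass the test (-0.42 and -0.41, limma adjusted p = 0.358 and 0.562), nor did Srebf2, which encodes the pathway's main transcription factor (-0.45, limma adjusted p = 0.384). DHA replicate 5 had the lowest value of the 5 DHA mice for Pmvk, Lss, Dhcr7, Msmo1 and Nsdhl. In the 9 fits that left out 1 array, Nsdhl was not called in 6 and Insig1 in 5. The count of genes that fell was 2 without OA replicate 3, 3 without DHA replicate 5 and 4 without DHA replicate 1 or OA replicate 4. The letters of a sterol element, TCACNCCAC, were in 1.24% of all windows and in 1.44% of all genes with a window. None of the 6 called cholesterol genes with a window held them, which says only that these letters are not in the window.

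Among genes of sterol transport, Abca1, which exports cholesterol to apolipoprotein A-I, was 9.35, 8.97, 9.11, 8.84 and 8.79 in DHA mice, against 7.98, 7.88, 7.96 and 7.16 in OA mice. The groups did not overlap on this probeset, and the difference was 1.26 ± 0.29 (limma adjusted p = 0.0093), a 2.40-fold rise. Another of its probesets, of lower level, had a difference of 0.93 ± 0.54 and did not pass the test. Without OA replicate 4, which had the lowest Abca1 value, the call was lost. Abca1 was the only one of 14 expressed sterol transport and LXR genes to rise, while Osbpl1a (-1.22), an oxysterol-binding protein, and Lpcat3 (-0.39), which remodels phospholipids, fell. The gene of the oxysterol receptor LXRα, Nr1h3, had a difference of -0.26 ± 0.11 (limma adjusted p = 0.266), and Npc1l1, the intestinal cholesterol importer, of 0.00 ± 0.17.

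Some genes of lipid droplets and chylomicrons were lower after DHA, Abhd5 and Apoc2 among them. Abhd5, the co-activator of adipose triglyceride lipase, read 7.51, 7.67, 7.75, 7.38 and 7.25 in DHA mice, against 8.59, 8.18, 8.82 and 8.55 in OA mice. The groups were apart and the fall was 2.03-fold (-1.02 ± 0.16, limma adjusted p = 9.9e-05). Plin3, a droplet coat protein (-0.62), and Cideb, which enlarges lipoprotein particles (-0.37), were also among the 3 of 13 expressed droplet genes that fell, with a list median of -0.36 and no gene that rose. Plin2 and G0s2 did not pass the test, at -0.36 and -1.39.

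Of 22 expressed genes of triacylglycerol resynthesis and chylomicron assembly, 6 fell and none rose, with a median of -0.19. Acsl3, an acyl-CoA synthetase of droplets and the endoplasmic reticulum, was -0.99 ± 0.18 (limma adjusted p = 0.00079), and the more abundant Acsl5 was -0.32 ± 0.06. Apoc2, the activator of lipoprotein lipase, was 12.54, 12.77, 12.80, 12.56 and 12.76 in DHA mice, against 13.38, 13.17, 13.18 and 13.46 in OA mice. Its groups were apart, at -0.61 ± 0.09 (limma adjusted p = 7.8e-05). The structural and assembly genes Apoa4 (-0.25), Mttp (-0.27) and Sar1b (-0.39) differed by small amounts at high levels, and the groups overlapped for Mttp, which was not called in 7 of 9 fits that left out 1 array. Sar1b was not called in 6 of those 9 fits. Apob had a difference of -0.66 ± 0.30 and Dgat1 of 0.05 ± 0.08, and neither passed the test. Apoa4 and Mttp were also among the enterocyte markers, and the part of enterocyte content in these falls was not tested.

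A fall among genes of transport between the endoplasmic reticulum and the Golgi apparatus was seen in the list of all called genes, and a list of 102 expressed genes, by prefix of their symbols, was assembled after those values were seen. Of these, 26 fell and 1 (Tmed8) rose, and the median was -0.12. Sec23a and Sec24d, subunits of the COPII coat that buds vesicles from the endoplasmic reticulum, were -0.41 ± 0.06 and -0.70 ± 0.12, and Sec16b, a scaffold of the exit sites, was -0.56 ± 0.11. Copa and Copb1, of the COPI coat that returns vesicles, were -0.21 ± 0.04 and -0.40 ± 0.07. Bet1, a SNARE of the same step, read 8.23, 8.33, 8.08, 8.04 and 8.31 in DHA mice, against 8.96, 8.82, 8.70 and 9.04 in OA mice. The replicates within each group were close, and the fall was 1.60-fold (-0.68 ± 0.09, limma adjusted p = 2.1e-05). Kdelr3, which returns chaperones to the endoplasmic reticulum, was 7.07, 6.56, 6.91, 6.86 and 7.20 in DHA mice, against 8.76, 8.72, 8.93 and 9.08 in OA mice. This was the largest fall of the list, 3.88-fold, with no overlap (-1.95 ± 0.39, limma adjusted p = 0.0023). The count of genes that fell was 17 to 23 when single arrays were left out, with 17 without DHA replicate 5 and without OA replicate 4, and the rise of Tmed8 was lost in 7 of those 9 fits. Pancreatic acinar markers, of cells rich in this machinery, had a median of -0.59 in the same contrast, and their part in the result was not tested. Over 36 expressed genes of the unfolded protein and integrated stress responses, 1 fell (Edem1, -0.29) and none rose, although 30 had a difference above 0 and the median was 0.18. This depended on the setting. With only the 4 wild-type groups fitted 5 rose, and with only the DHA and OA arrays fitted Edem1 was not called. At an unadjusted p under 0.01, 5 were higher and 1 lower, against 3.55% and 5.18% of all genes.

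**Figure D3:**
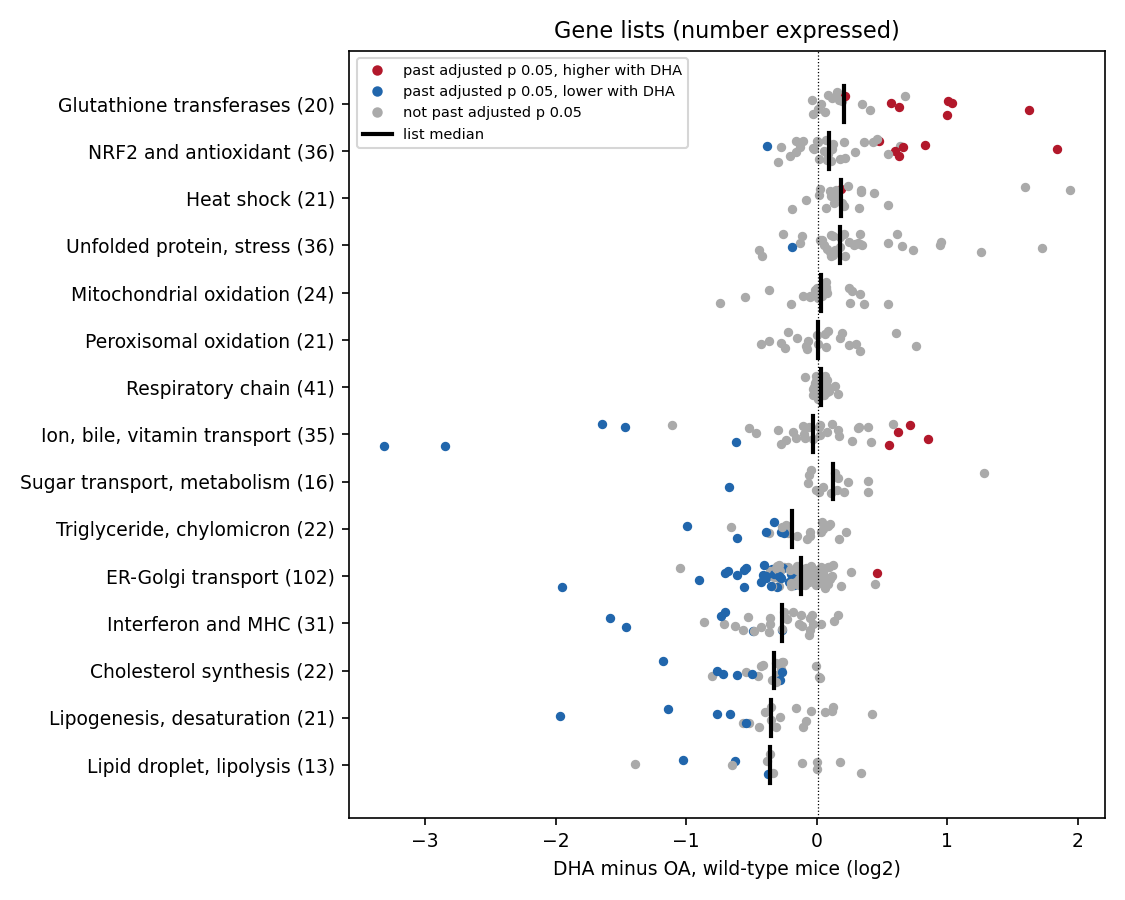
Difference between DHA and OA in wild-type mice (log2, x axis) of each expressed gene in 15 lists (y axis, number expressed in brackets), with 1 point per gene on its brightest probeset, coloured by whether any of its probesets passed the adjusted p of 0.05, the list median as a black bar and the median of all genes as a dotted line. The medians lie at 0.21 for the glutathione transferases, -0.33 for cholesterol synthesis and 0.04 for mitochondrial oxidation.

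Some interferon-stimulated and MHC genes were lower after DHA. Of 31 expressed genes, 6 fell, none rose and 28 had a difference below 0, with a median of -0.26. Over all genes, 3.15% fell and 4061 of 8626 had a difference below 0. Usp18, which removes ISG15 from proteins and dampens interferon signalling, read 6.61, 6.44, 7.04, 7.20 and 6.24 in DHA mice, against 8.09, 8.41, 8.51 and 8.16 in OA mice. The groups did not overlap, and Usp18 was 3.0-fold lower (-1.58 ± 0.31, limma adjusted p = 0.0018). Ifit3, an antiviral effector, was 6.17, 6.58, 7.17, 7.20 and 6.51 in DHA mice, against 7.82, 8.34, 8.19 and 8.39 in OA mice. Here too the groups were apart, at -1.46 ± 0.29 (limma adjusted p = 0.0024). Oas1a (-0.73), Irgm1 (-0.70), Irf9 (-0.49), which is the DNA-binding part of the interferon-activated complex ISGF3, and H2-K1 (-0.47), an MHC class I heavy chain, completed the genes that fell. In the 9 fits that left out 1 array, H2-K1 was not called in 7, Irgm1 in 5 and Oas1a in 4. Further genes of the same kind, chosen after their values were seen, were Herc6 (-1.31), Ddx60 (-1.18), Cmpk2 (-0.74), Oasl1 (-0.67), Ddx58 (-0.63) and Helz2 (-0.57). Irf1 had a difference of -0.06 ± 0.15. The macrophage marker Csf1r was lower (-0.39 on 1 of 3 probesets), and the mean over 7 macrophage markers was 7.63 to 7.91 in DHA arrays and 7.86 to 7.99 in OA arrays; the part of these cells in the result was not tested, and in whole intestine fewer cells of a type and less RNA per cell cannot be told apart. The count was 3 without DHA replicate 5 and without OA replicate 2.

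The interferon-stimulated response element was searched as GAAA, any 2 bases and GAAA after the values were seen. It occurred on either strand in 3.44% of all windows and in 3.99% of all genes with a window. It was in 3 of 5 genes that fell and had a window, against 9 of 20 expressed members that were not lower. The 3 are shown because they are the called genes that hold the letters, with capitals for the match, and the first match begins at -30 in Irgm1, -20 in Oas1a and -156 in Ifit3, counted in bases from the start site. They are Irgm1 at chr11:48871390-48871495 on the minus strand, Oas1a at chr5:120907485-120907590 on the minus strand and Ifit3 at chr19:34583328-34583461 on the plus strand (GRCm38.p6, RefSeq).
Irgm1: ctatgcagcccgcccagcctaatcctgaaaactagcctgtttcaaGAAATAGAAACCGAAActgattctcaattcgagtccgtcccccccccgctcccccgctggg
Oas1a: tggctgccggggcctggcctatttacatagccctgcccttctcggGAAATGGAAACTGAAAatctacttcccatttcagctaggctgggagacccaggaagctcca
Ifit3: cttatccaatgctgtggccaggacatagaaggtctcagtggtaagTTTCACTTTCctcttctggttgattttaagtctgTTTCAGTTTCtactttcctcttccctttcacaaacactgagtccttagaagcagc

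Transporters of the brush border and basolateral membrane moved in both directions. The largest fall of all genes was that of Slc34a2, a sodium-phosphate cotransporter, which read 5.63, 5.18, 4.69, 7.23 and 3.47 in DHA mice, against 8.94, 9.04, 7.85 and 8.40 in OA mice. The DHA mice spread over more than 3 log2 units but stayed below the OA mice, and the mean fall was 9.96-fold (-3.32 ± 0.56, limma adjusted p = 0.00030). Slc6a3, a dopamine transporter, was 4.29, 4.27, 4.75, 5.31 and 4.38 in DHA mice, against 7.83, 6.73, 8.15 and 7.07 in OA mice. With the DHA mean under a log2 value of 5, it was at least 5.44-fold lower (-2.85 ± 0.42, limma adjusted p = 5.5e-05). Slc5a8 (-1.47) and Slc5a12 (-1.65), both sodium-coupled carriers of monocarboxylates such as lactate, fell as well, and DHA replicates 4 and 5 were lowest for Slc5a12 at 7.03 and 6.15, against 8.96 to 9.69 in OA mice. Slc13a1, the sodium-sulphate cotransporter, was higher on both of its named probesets. On the more abundant one it was 12.08, 12.02, 11.84, 12.06 and 11.90 in DHA mice, against 11.32, 11.23, 11.07 and 10.89 in OA mice. These values were apart (0.85 ± 0.12, limma adjusted p = 3.3e-05). Slc40a1, the iron exporter ferroportin (0.72), and Atp2b1, a plasma membrane calcium pump (0.62), rose too. In all, 4 of 35 expressed genes of ion, bile acid and vitamin handling rose and 5 fell, with a median of -0.03. Without OA replicate 4, 2 rose, and without DHA replicate 5 or OA replicate 1, 3 fell.

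Amino acid carriers were likewise divided, with 3 of 23 higher and 3 lower. Slc38a2 (0.49) and Slc7a1 (0.55), which import small neutral and cationic amino acids, and Slc43a3 (0.63), a purine base transporter held in that list, rose. Slc25a13 (-0.77), Slc7a7 (-0.33) and the glutamate carrier Slc1a1 (-1.05 on 1 of 2 probesets) fell. The peptide carrier Slc15a1 had a difference of 0.03 ± 0.14 and the glucose carrier Slc5a1 of 0.16 ± 0.09. The higher count was 1 without DHA replicate 3 or OA replicate 2, and the lower count was 1 without DHA replicate 5, OA replicate 1 or OA replicate 4. Of 16 genes of sugar uptake and metabolism, only Slc5a9 fell (-0.71) and none rose, where 3.15% of all genes fell. Its call was lost without DHA replicate 4 or 5 or OA replicate 1, 3 or 4.

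The lists of mitochondrial and peroxisomal fatty acid oxidation, the processes that PPARα is best known to drive, gave no called gene in this comparison. None of 24 expressed mitochondrial oxidation genes, 21 peroxisomal genes, 11 acyl-CoA thioesterases or 10 genes of ketone synthesis and fuel switching passed the test in limma. The spread used for these tests and for the intervals below came from all 35 arrays, with the 3 against their genotype label. At an unadjusted p under 0.05, which 8.46% of all genes passed upward and 9.41% downward, the counts were 2 higher and 1 lower, 1 and 1, 1 and 0, and 1 and 0 in these 4 lists. Without the 3 doubted arrays 1 mitochondrial gene rose, Slc22a5, the carnitine importer (0.55, adjusted p = 0.0105 in limma), and with only the DHA and OA arrays fitted 2 mitochondrial genes, 1 peroxisomal gene and 1 gene of ketone synthesis and fuel switching rose. Eci3, an enoyl-CoA isomerase outside these lists that was chosen after its values were seen, was higher (0.53, adjusted p = 0.0104 in limma). Cpt1a, which admits fatty acids to mitochondria, was 10.54, 10.30, 10.53, 10.53 and 10.53 in DHA mice, against 10.74, 10.52, 10.97 and 10.50 in OA mice. The groups overlapped, and the unadjusted 95% interval of the difference of -0.20 was -0.49 to 0.10. The intervals were -0.10 to 0.76 for Ehhadh, a peroxisomal enzyme (0.33), -0.23 to 0.77 for Slc25a20, the carnitine carrier (0.27), and -1.36 to 1.17 for Pdk4, which shuts pyruvate out of oxidation (-0.09). Of 8 expressed omega-oxidation genes, Cyp4b1 (0.59) and Aldh1a1 rose while Cyp4f16 (-0.95) and Aldh9a1 fell. Neither Cyp4b1 nor Aldh1a1 was called without OA replicate 2 or without OA replicate 4. The probeset shared by Cyp4a10 and Cyp4a31 named no single gene and was outside this list. It read 8.47 to 9.88 in DHA mice and 8.81 to 9.73 in OA mice, with overlap. The contrast is between 2 lipids, so these values do not say how either differed from no lipid.

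Ppara itself read 10.37, 10.45, 10.35, 9.96 and 10.06 in DHA mice, against 9.74, 9.13, 9.68 and 8.71 in OA mice. The values did not overlap, but the difference of 0.92 ± 0.34 did not pass the test (limma adjusted p = 0.159). With the 3 arrays that went against their genotype label left out of the fit it did (adjusted p = 0.0080). Another Ppara probeset, of lower level, was 7.2 to 8.6 in DHA mice and 5.6 to 7.1 in OA mice, also without overlap. Ppara was not among the genes called in the main fit. Among other nuclear receptors and their partners, Esrra (0.37), Ppargc1a (1.11), the co-activator of mitochondrial genes, and Nr1h4 (0.56), the bile acid receptor FXR, rose, and Pparg fell (-0.59). For Ppargc1a and Nr1h4 the groups overlapped. Of the 27 expressed genes in that list, 4 rose and 1 fell. The count that rose was 2 without DHA replicate 3 or 5 or OA replicate 1 or 2, and Pparg was called in only 2 of 9 fits that left out 1 array. None of 41 expressed respiratory chain genes passed the test, and at an unadjusted p under 0.05 there was 1 higher and 0 lower.

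Several single genes stood out beside these groups. Ltc4s, the synthase of leukotriene C4, read 4.87, 4.74, 3.88, 4.57 and 3.89 in DHA mice, against 7.61, 6.26, 6.95 and 7.12 in OA mice. It was at least 3.96-fold lower with no overlap (-2.60 ± 0.28, limma adjusted p = 7.8e-07), and it was the only one of 14 expressed eicosanoid genes to change. Susd2, a membrane protein, was 7.73-fold lower (-2.95 ± 0.51), Tubb2a, a tubulin, 3.98-fold lower (-1.99 ± 0.29) and Arsg, a lysosomal sulfatase, 4.82-fold lower (-2.27 ± 0.24). Dnah2 (-2.56) and Nt5e (-1.86), which makes adenosine from AMP, were also among the largest falls. Where the DHA mean lay under a log2 value of 5 only a bound is given, at least 3.21-fold lower for Lrrc75b, 3.41-fold for the water and glycerol channel Aqp7, 1.25-fold for Hykk and 1.03-fold for Paqr9. Slc16a9 (1.71), Pfkfb3 (1.29), a control enzyme of glycolysis, Aldh4a1 (1.22), of proline breakdown, and Gcnt3 (1.08), a mucin glycosyltransferase, were among the largest rises, and Pfkfb3 was called in only 2 of 9 fits that left out 1 array.

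Of the stress chaperones, only Hspa8 was called (2 genes without DHA replicate 3). Hspa1b read 11.19, 10.30, 8.99, 10.12 and 10.35 in DHA mice, against 9.13, 8.53, 8.27 and 8.45 in OA mice. DHA replicate 3 overlapped with the OA mice, and the difference of 1.59 ± 0.57 did not pass the test (limma adjusted p = 0.139). Of 21 expressed heat shock genes, 19 had a difference above 0, the median was 0.19, and the call of Hspa8 rested on 1 probeset (1.47) of the 4 that read it; the other 3 differed by 0.16 to 0.21 and did not pass. Of 31 proliferation genes, Mcm2 (-0.60), a subunit of the replicative helicase, and Tk1 (-0.53), thymidine kinase, fell and none rose. Over all genes, 3.15% fell. Neither Mcm2 nor Tk1 was called without OA replicate 3, and Tk1 was called in 1 of 9 fits that left out 1 array. Reg3a, an antimicrobial lectin (0.77), and Nfkbia, the inhibitor of NF-κB (0.43), were the 2 of 19 inflammatory and acute phase genes that rose, and neither was called without DHA replicate 5 or without OA replicate 4.

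In PPARα-null mice the same contrast called fewer genes, 28 higher (0.325%) and 85 lower (0.985%). It rested on 4 DHA and 4 OA arrays, and 1 of these OA arrays went against its genotype label. The number of genes called is therefore not directly comparable between the genotypes. The genes called in wild-type mice mostly kept their sign in PPARα-null mice. Of the 121 that rose, 109 (90.1%) were above 0 in PPARα-null mice with a median of 0.26, and of the 272 that fell, 252 (92.6%) were below 0 with a median of -0.29. Over all genes, 60.5% had the same sign in both genotypes. The wild-type difference was the larger one for 119 of 121 and 254 of 272 genes, which the choice of genes by their wild-type difference favours. A test of the difference between genotypes itself called no gene in limma at adjusted p under 0.05, while 720 genes (8.35%) had an unadjusted p under 0.05 and 158 (1.83%) under 0.01. One of the PPARα-null OA arrays went against its genotype label. Without it and the other 2 such arrays, 2 genes were called, Gsta2 and Ptger3.

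Gsta2 was 6.32, 6.51, 6.37 and 6.19 in PPARα-null DHA mice, against 5.31, 6.23, 6.14 and 6.31 in PPARα-null OA mice, the first of which is the doubted array. The groups overlapped, with a difference of 0.35 in PPARα-null mice against 1.63 in wild-type mice (difference between genotypes 1.27 ± 0.31, SE, adjusted p = 0.459 in limma; 1.5, adjusted p = 0.0281, without the 3 arrays). Gclc, in contrast, was 10.87, 10.37, 10.36 and 11.73 in PPARα-null DHA mice, against 9.30, 10.06, 9.74 and 9.94 in PPARα-null OA mice. Those groups did not overlap, and the difference of 1.07 passed the test there (limma adjusted p = 0.0214). Without the 3 arrays it was 0.92 and did not pass (limma adjusted p = 0.074). Srebf1 differed by -0.97 in PPARα-null and -1.97 in wild-type mice (difference between genotypes -1.0, unadjusted 95% interval -1.71 to -0.30). Usp18 fell in both genotypes, and it was 6.16, 6.43, 6.85 and 5.91 in PPARα-null DHA mice, against 8.04, 8.52, 8.59 and 8.62 in PPARα-null OA mice. That is a difference of -2.10 without overlap (limma adjusted p = 0.00075), and 8 genes of the interferon list fell there, with a median of -0.33. Among genes called in wild-type mice, those with the smallest unadjusted p for the difference between genotypes were Nfkbiz, an atypical IκB protein (0.81 in wild-type, -0.10 in PPARα-null mice), and Rab11fip3 (-0.82 and 0.08).

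**Figure D4:**
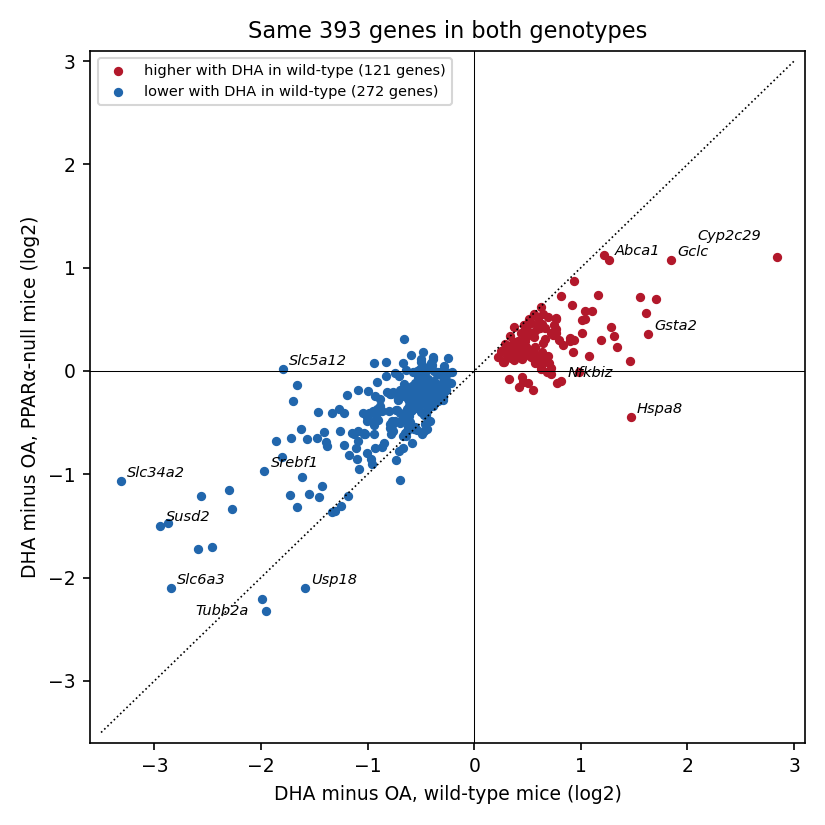
Difference between DHA and OA in PPARα-null mice (log2, y axis) against that in wild-type mice (log2, x axis) for the 393 genes called in wild-type mice, with the dotted line where both are equal. The genes were chosen on the x axis; 109 of 121 (red) and 252 of 272 (blue) keep their sign on the y axis, and Hspa8 (-0.45 in PPARα-null mice) is one that does not.

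The wild-type mice given EPA at the same volume and time show which differences from OA were shared by the n-3 lipids. Since the comparisons share arrays, their values are given side by side. DHA against EPA gave 22 genes higher (0.255%) and 40 lower (0.464%), counts that moved with the setting and with single arrays; without the 3 doubted arrays, 1 of them in the EPA group, 37 genes were called, of which 27 were among these 62. Both pairs of lipids were tested over all probesets, with p adjusted within each pair.

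Of 36 antioxidant genes 2, and of 20 glutathione transferases 3, were higher with DHA than with EPA. Gclc read 11.06 to 11.68 with DHA, against 10.47, 9.91, 10.26, 10.29 and 10.29 with EPA, so that EPA mice lay between DHA and OA mice without overlap. The difference between DHA and EPA was 1.11 (limma adjusted p = 0.0097), and it was 1.13 (adjusted p = 0.0191) without the 3 arrays. Gsta2 averaged 7.76 ± 0.32 with DHA and 6.66 ± 0.52 with EPA (SD, n = 5 each), a difference of 1.10 (limma adjusted p = 0.0066). Gsta3 (1.09), Akr1c13 (0.51), Mgst2 (0.34) and Cyp4b1 (0.61) were also higher with DHA, but Gsta3, Akr1c13, Mgst2 and Cyp4b1 had adjusted p-values of 0.0566, 0.0566, 0.0908 and 0.0575 without the 3 arrays. For Nqo1 the difference of 0.37 did not pass the test, and its unadjusted 95% interval was 0.10 to 0.65.

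Slc34a2 was among the genes that were lower with DHA than with EPA. It was 3.47 to 7.23 with DHA, against 8.06, 7.75, 8.07, 7.65 and 9.22 with EPA, with no overlap and a difference of -2.91 (limma adjusted p = 0.0061; -2.64 without the 3 arrays, adjusted p = 0.0057). Slc5a8 was 1.28 lower on the log2 scale with DHA than with EPA (limma adjusted p = 0.0274). By contrast, Srebf1 averaged 7.58 ± 0.42 with DHA and 7.57 ± 0.26 with EPA (SD, n = 5 each), and the unadjusted 95% interval of the difference was -0.45 to 0.47. The intervals were -0.66 to 0.68 for Scd2, -0.41 to 0.20 for Abhd5, -0.72 to 0.91 for Slc6a3 and -0.46 to 0.66 for Abca1, so that differences of these sizes between DHA and EPA lie within the error. Usp18 and Ifit3 had EPA means of 7.47 and 7.63, between those of DHA and OA mice, and the differences between DHA and EPA of -0.76 and -0.90 did not pass the test.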

How the data were processed

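The authors hybridised 5 µg of labelled small-intestinal RNA per mouse to Affymetrix mouse genome arrays. The deposited table holds log2 values of 45101 probesets, 64 of them controls, on 35 arrays. The submitters' processing notes name GCRMA, which corrects background by probe sequence and makes the arrays' distributions alike. Shifts shared by most genes are thereby removed. For Cyp4a10, very low in PPARα-null mice, the study's array folds exceeded its qPCR folds, so folds from low levels are uncertain. The platform annotation gave 1 gene for 34945 probesets, several for 932 and none for 9160, and probesets with several or none named no gene. One limma 3.58.1 model (R 4.3.3) of 8 group means, with an intensity trend, was fitted to all 35 arrays, so that the groups shared 1 estimate of the spread, and was tested on simulated data. Each array is 1 mouse, and the number of arrays limits the precision. Intervals are 95% and unadjusted. Folds "at least" set the brighter group's mean against 32. Named genes were the 15 largest non-overlapping differences each way, up to 6 called members per list (12 for the secretory list) with its regulator, list genes the study tabulates, and up to 10 with the largest genotype dependence; others are named as list members or as chosen after their values were seen. The members and the 28 lists were chosen with earlier results of these data known. Alternatives covered filters, normalization, array weights, arrays left out and the replicate block.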

Additional observations from a re-analysis of the deposited data

Results flagged for a closer look

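Among 364 groups of 4 or 5 arrays, 16 held 1 array far from the others of its group by Dixon's criterion, and chance alone marks about 1 in 20 groups. Of the genes called between DHA and OA, 3 had a low OA replicate 4: Slc16a9 at 4.84 (others 6.09 to 6.19), Il1rn at 2.53 (3.27 to 3.37, with both group means under a log2 value of 5) and Abca1 at 7.16 (7.89 to 7.98). OA replicate 2 was apart for Tex12 at 7.64 (7.07 to 7.10), Srebf1 at 9.26 (9.62 to 9.68) and Sar1b at 12.49 (12.62 to 12.64). Among DHA mice, Dhcr7 was 7.23 in replicate 5 (7.86 to 8.07), Mttp 13.24 in replicate 3 (12.97 to 13.05) and Ugdh 11.36 in replicate 4 (11.69 to 11.82).

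Genes that were not called gave the other 7. In DHA mice these were Cpt1a at 10.30 in replicate 2 (10.53 to 10.54), Gstk1 at 10.46 in replicate 2 (10.27 to 10.32) and Slc6a8 at 10.40 in replicate 5 (10.72 to 10.81). In OA mice they were Fads2 at 7.12 in replicate 1 (7.82 to 7.89), Cck at 9.52 in replicate 1 (9.20 to 9.23), Xbp1 at 11.48 in replicate 3 (11.42 in the others) and 1 probeset of Slc7a7 at 9.14 in replicate 3 (9.70 to 9.81).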

How the results depend on the processing

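Over the 22 to 24 settings run for each, none of the 116 named probesets that were called changed direction, and 68 stayed past the threshold in all. The other 48 lost it in at least 1, most often Pfkfb3 (12 of 24), Cyp2d26, Pparg and Cry1 (11 each) and Nsdhl and Mttp (10 each). Of 66 named probesets that were not called, 13 changed sign, among them Pdk4, Irf1, Slc15a1 and Npc1l1, all near 0. With array weights, 274 genes were higher with DHA than with OA, while adjusted p under 0.01 gave 45 higher and 150 lower and unadjusted p under 0.01 gave 306 and 447. Leaving out single arrays gave 70 to 125 higher and 177 to 284 lower; without OA replicate 4, 238 of the 393 genes (60.6%) were still called. The genotype difference was called for 0 to 1 genes when single arrays were left out (1 without PPARα-null OA replicate 1), 2 without the 3 arrays that went against their genotype label, 1 on the scale log2(value + 32) and 158 at unadjusted p under 0.01. DHA against EPA was the least stable: 20 genes with only those 2 groups fitted, 117 with the 4 wild-type groups, 37 without the 3 arrays, 146 with array weights, 17 at adjusted and 561 at unadjusted p under 0.01, and 17 to 95 with single arrays left out (17 without DHA replicate 3, 95 without EPA replicate 2; 37 without DHA replicate 5, 38 without EPA replicate 3, 25 without EPA replicate 5). The cause was not tested.

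The groups share replicate numbers. Deviations of same-numbered DHA and OA arrays correlated at 0.22, 0.06, 0.39 and -0.13 for numbers 1 to 4, and only number 3 was its own best match. So few arrays cannot decide whether the numbers pair the mice. With the replicate block, 119 genes were higher and 245 lower, 0 depended on genotype and 52 differed between DHA and EPA.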

Other observations

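Some genes that did not pass the test between DHA and OA separated DHA from EPA; they were chosen after their values were seen. Per2, a repressor of the circadian clock, read 7.67, 8.09, 7.60, 7.64 and 7.29 in DHA mice, 6.70, 6.77, 6.53, 6.13 and 6.20 in EPA mice and 7.99, 7.15, 7.96 and 6.73 in OA mice. The DHA mice lay above all EPA mice (1.19 ± 0.26, limma adjusted p = 0.0245) and overlapped with the OA mice. Sgk1, a kinase that controls sodium transport, was 0.94 ± 0.21 higher with DHA than with EPA (limma adjusted p = 0.0274). Its lowest EPA value, 10.76, was on the doubted array, EPA replicate 5, and the other EPA values were 11.63 to 11.95.

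Other genes, also chosen after their values were seen, were lower with DHA than with EPA. Cxcl10, an interferon-induced chemokine, read 4.26, 4.27, 4.73, 4.42 and 4.04 in DHA mice, 4.96, 5.62, 5.64, 5.91 and 5.13 in EPA mice and 4.58, 4.34, 4.22 and 4.36 in OA mice, so that the EPA mice lay above both other groups (DHA minus EPA -1.11 ± 0.20, limma adjusted p = 0.0061). Clec7a, a fungal lectin receptor of myeloid cells, was also lower than with EPA (-1.39 ± 0.23, limma adjusted p = 0.0025). Ido1, which degrades tryptophan, was lower with DHA than with EPA (-1.0 ± 0.13, limma adjusted p = 0.00033) and also than with OA (-0.64, limma adjusted p = 0.0069). The counts of genes between DHA and EPA moved with the setting, as given above, and for these single genes no values without the doubted arrays are given.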
